A study of Capra hircus with 8 samples.

Results

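Skin of cashmere goats and of milk goats was compared between month 3 and month 12. These are the 2 of the 4 sampled months in which the milk goats carried few hair transcripts. The comparison takes 4 of the 8 libraries of the series, 1 for each breed at month 3 and 1 for each breed at month 12, with breed as the pairing term, so that each month is represented by 2 libraries. Cashmere goats are kept for a fine undercoat that grows seasonally, and milk goats are dairy animals. No treatment, genotype or strain beyond the breed is given. The number of months stands under age in the labels and without that word in the design, which does not settle whether it is a calendar month or the animals' age. How many animals went into each library is not stated either, and the protocol text speaks of embryos although the tissue is given as skin. Every p-value of the main test therefore measures only the spread that month and breed leave over across all 8 libraries. With 1 library for each breed and month, that spread cannot separate differing courses of the breeds from variation between animals or technical variation.

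The hair follicle passes through growth, regression and rest, and its lower part is rebuilt in every cycle. The surrounding dermis consists mainly of type I and type III collagen fibres, which fibroblasts secrete as procollagen, trim with proteases and cross-link with lysyl oxidases. Sebaceous glands, the epidermis, blood vessels and muscle also contribute RNA to a skin sample, and in such bulk RNA fewer cells of a type and less RNA per cell cannot be told apart.

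Library totals were 7731607 and 11333734 reads at month 3 (cashmere and milk goats) and 7480053 and 11485295 reads at month 12. Levels are given as CPM, the count of a gene relative to the library total after scaling by TMM factors, and a count of 0 allows up to 0.244 to 0.395 CPM in these 4 libraries (3 reads, counting error only). Skin genes were present in each of them: the basal keratin KRT5 lay between 5923 and 9735 CPM and COL1A1 between 539 and 9930 CPM. Genes of the hair shaft and inner root sheath took 2.79% and 1.203% of the reads at month 3 and 8.07% and 0.404% at month 12, so the milk library of month 12 held the least hair RNA and the cashmere library of month 12 the most. The same 2 libraries lay far apart on the leading principal component of all 8 libraries (48.7% of the variance), at -70.9 and 35.3, with the month 3 libraries at -51.8 (milk) and -7.40 (cashmere). Hair content thus differed between the breeds within each month, and its part in the differences below was not tested.

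Of 14085 genes tested, none passed an adjusted p of 0.05 between month 3 and month 12 in edgeR's quasi-likelihood test (0% in either direction, smallest adjusted p 0.372). At an unadjusted p under 0.05, 778 genes had the higher level at month 3 (5.52% of those tested) and 710 at month 12 (5.04%). With library totals in place of TMM factors this split was 1090 to 257, and the median log2 difference of all genes moved from -0.03 to 0.12. With limma on log2 FPKM it was 1238 to 264 (pseudocount 1) and 1065 to 260 (pseudocount 0.1), with 0 genes past an adjusted p of 0.05 in both. DESeq2's Wald test called 93 of the 10535 genes it gave an adjusted p (0.883%), 61 with the higher level at month 3 and 32 at month 12. Without the milk library of month 12, edgeR called 45 genes, 23 higher at month 3 and 22 at month 12, and 0 without any other single library. The 45 included the named genes TWIST1 (adjusted p 0.0489), AKR1D1 (0.0252) and FOS (0.0340). The differences below are therefore values with their spread, and none is a call of the main test. Leaving out a library of month 3 or month 12 leaves a single library in that month. The count over all genes at an unadjusted p under 0.05 then moved too. It fell without either library of month 3 and rose without either library of month 12. Counts of list members without single libraries, given below, were not set against this shift and are not a property of the list alone.

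At least 2-fold apart between the months were 1297 genes in cashmere goats and 1446 in milk goats, and the 2 breeds' log2 differences had a Pearson correlation of 0.0991 across genes, which are not independent replicates. In both breeds, 109 genes were at least 2-fold higher at month 3 (0.774% of those tested) and 57 at least 2-fold higher at month 12 (0.405%). At any size, 26.3% of all genes were higher at month 3 in both breeds and 27.4% at month 12 in both. Where both libraries of a month are said below to lie above both of the other, a stricter order is meant. Its share over all genes was not counted, so it only describes the genes it is given for. The 12 named genes of each direction below are those of at least 5 CPM on average with the largest difference in the breed where it was smaller.

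**Figure D1:**
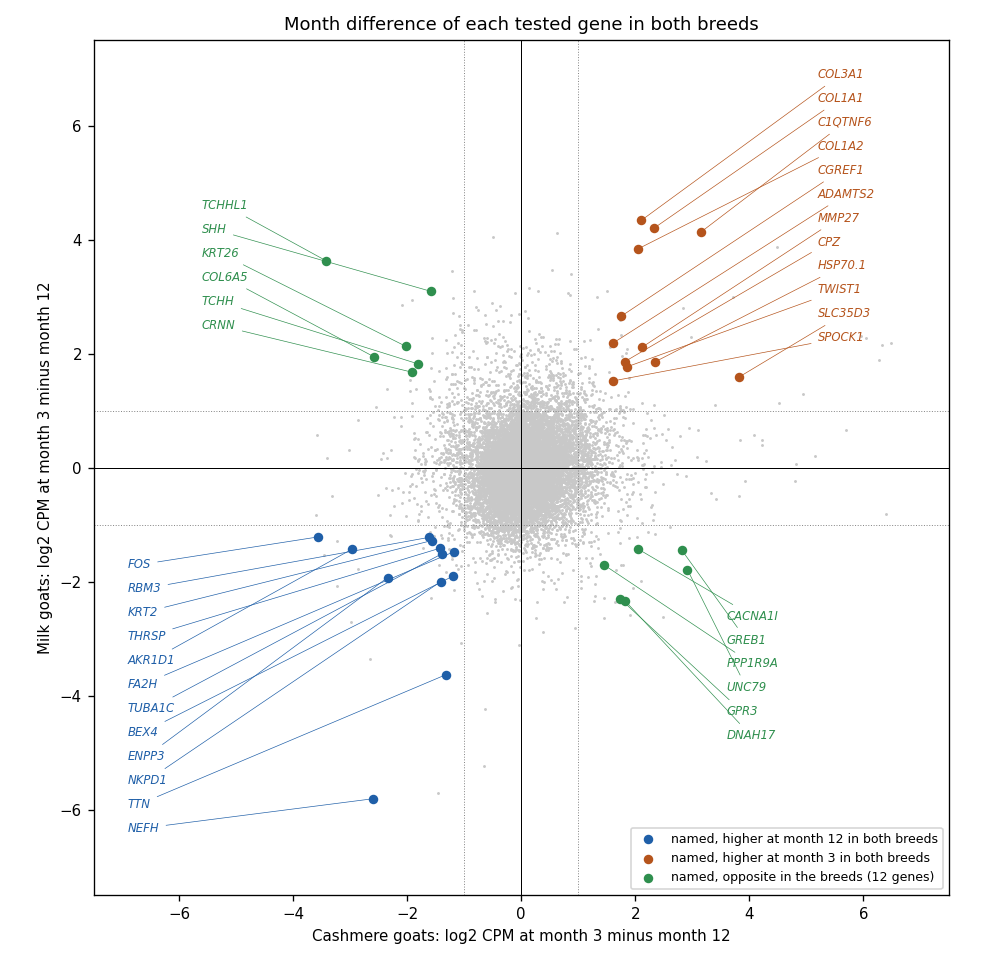
Log2 CPM at month 3 minus month 12 in cashmere goats (x axis) and in milk goats (y axis) for each tested gene (grey points), with dotted lines at 2-fold; named genes are coloured. COL1A1, COL1A2 and COL3A1 lie at 2.05 to 2.33 in cashmere goats and 3.84 to 4.34 in milk goats, while hair genes such as TCHH lie on opposite sides of 0 in the breeds.

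The fibrillar collagens of the dermis were among the named genes higher at month 3. COL1A1, the alpha 1 chain of type I collagen, stood at 3687 CPM in cashmere goats and 9930 CPM in milk goats at month 3, against 735 and 539 CPM at month 12. Both month 3 libraries were above both month 12 libraries, and the fitted log2 difference was 3.35 ± 0.80 (SE; unadjusted p = 0.00366, adjusted p = 0.372), a 10.2-fold difference. COL1A2, the partner chain of type I collagen, had 1500 and 3764 CPM at month 3 and 363 and 263 CPM at month 12 (log2 difference 3.06 ± 0.72). COL3A1, the chain of type III collagen, had 1763 and 3948 CPM at month 3 and 408 and 194 CPM at month 12 (3.34 ± 0.71). For all 3 chains the milk goats held both the highest and the lowest level of the 4 libraries. Per length of gene, COL1A1 stood at 408 and 989 FPKM at month 3 and 73.7 and 47.1 FPKM at month 12. Its ratio to COL1A2 in FPKM was 2.24 and 2.41 at month 3 and 1.85 and 1.87 at month 12, so this ratio did not overlap between the months either. The ratio of COL1A1 to COL3A1 did overlap (1.94 and 2.33 against 1.67 and 2.57).

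Month 3 was not the highest month of the fibrillar collagens in cashmere goats. Their COL1A1 level reached 17749 CPM at month 6 and was 1994 CPM at month 9, whereas in milk goats it was 6076 and 5147 CPM in those months, below month 3. In both breeds month 12 was the lowest of the 4 months for COL1A1, COL1A2 and COL3A1. Across the 12 named genes higher at month 3, month 12 was the lowest month in both breeds for 10. Month 3 was the highest in both for only 2 of them, SPOCK1 and TWIST1, and the cashmere maximum lay at month 6 for 9 of the others, HSP70.1 being the exception. Of all 109 genes at least 2-fold higher at month 3 in both breeds, month 3 was the highest month for 61 in cashmere goats and 99 in milk goats, and month 12 the lowest for 94 and 54.

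**Figure D2:**
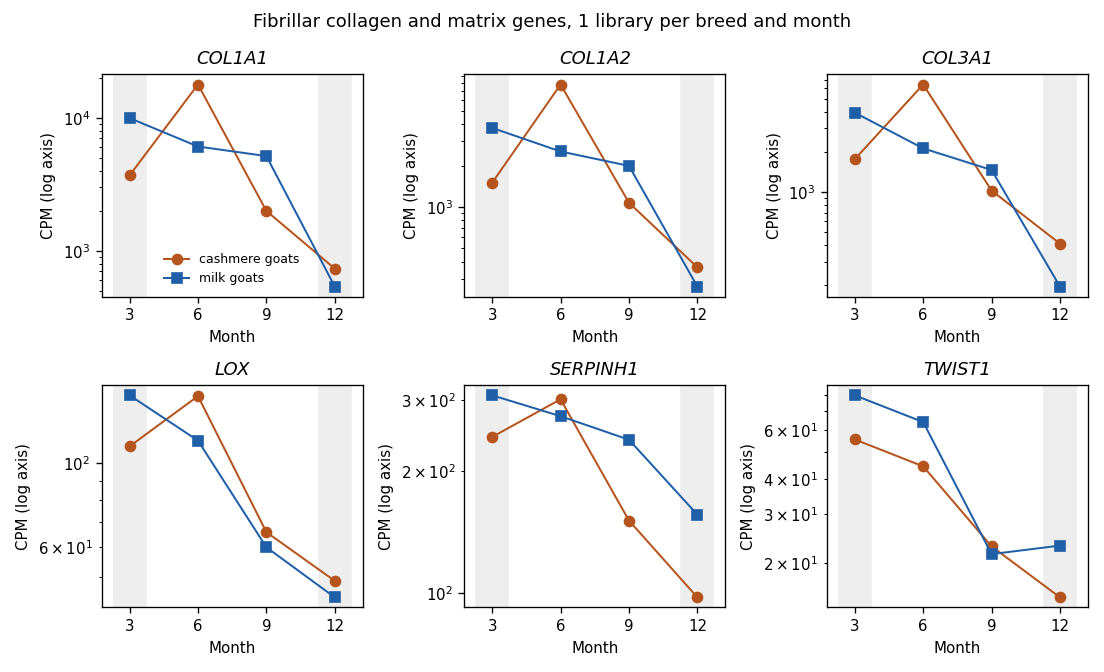
CPM (log axis) of 6 matrix genes against month in cashmere goats (circles) and milk goats (squares), 1 library per point, with months 3 and 12 shaded. Month 12 is the lowest point of COL1A1, COL1A2 and COL3A1 in both breeds, and the cashmere maximum of COL1A1 is at month 6 (17749 CPM).

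Of the 44 collagen genes in the table, 34 passed the filter on low counts and were tested. Of these, 11 (32.4%) reached an unadjusted p under 0.05 with the higher level at month 3 and 0 with the higher level at month 12, against 5.52% and 5.04% of all genes. In both breeds 17 were higher at month 3 and 3 at month 12, and the median log2 difference was 0.40, against -0.03 over all genes. Without the milk library of month 3 the count of 11 was 3, with 1 in the other direction, and without any other single library it was 9 to 13.

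Collagens that form beaded or fibril-associated structures differed less than type I and type III collagen. The type VI chains COL6A1, COL6A2 and COL6A3, which form the beaded filaments around cells, had log2 differences of 0.95 ± 0.33, 1.09 ± 0.29 and 0.82 ± 0.21. COL6A3 stood at 381 and 532 CPM at month 3 and 221 and 295 CPM at month 12, with no overlap between the months. COL5A1, a chain of the type V collagen that sets fibril diameter, had 17.5 and 47.1 CPM at month 3 and 9.88 and 5.46 CPM at month 12 (2.0006 ± 0.59). COL5A2, its partner, had 144 and 223 CPM at month 3 and 137 and 65.4 CPM at month 12, close together in cashmere goats. COL12A1, a fibril-associated collagen, had 265 and 334 CPM against 179 and 195 CPM, and COL15A1, a collagen of the basement membrane zone, 76.6 and 86.9 CPM against 46.9 and 48.1 CPM. Both were higher at month 3 in each breed. The remaining member at an unadjusted p under 0.05 was COL6A6, at 4.47 and 9.77 CPM against 3.56 and 1.76 CPM.

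The other tested collagens gave log2 differences between -0.39 and 0.96. Basement membrane chains were among these. COL4A1 had 169 and 179 CPM at month 3 and 146 and 118 CPM at month 12, COL4A2 124 and 114 CPM against 99.8 and 96.9 CPM, COL4A5 31.3 and 28.99 CPM against 49.5 and 31.2 CPM, COL4A6 10.99 and 9.61 CPM against 15.7 and 11.1 CPM, and COL18A1 205 and 217 CPM against 236 and 276 CPM. The 3 collagens lower at month 3 in both breeds were COL4A5, COL4A6 and COL18A1. COL17A1, the anchor of basal keratinocytes, and COL7A1, the anchoring fibril collagen, went opposite ways in the breeds, with 1525 and 1981 CPM against 1288 and 3337 CPM for COL17A1 and 161 and 187 CPM against 99.7 and 207 CPM for COL7A1. COL6A5 and COL11A1 were also opposite, higher at month 12 in cashmere goats and at month 3 in milk goats (COL11A1 at 15.8 and 9.04 CPM against 26.2 and 4.85 CPM). The rest, COL5A3, COL8A1, COL8A2, COL11A2, COL13A1, COL14A1, COL16A1, COL21A1, COL22A1, COL23A1, COL24A1, COL26A1, COL27A1 and COL28A1, had unadjusted p-values between 0.066 and 0.928.

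Enzymes that process and cross-link collagen showed the same direction. Of 33 tested, 15 (45.5%) reached an unadjusted p under 0.05 with the higher level at month 3 and 0 with the higher level at month 12, and 21 were higher at month 3 in both breeds (median log2 difference 0.57). LOX, the lysyl oxidase that starts cross-links, stood at 111 and 152 CPM at month 3 and 48.7 and 44.05 CPM at month 12 (1.51 ± 0.23). ADAMTS2, which removes the amino-terminal propeptide of procollagen, had 39.7 and 82.9 CPM against 12.9 and 18.1 CPM (1.94 ± 0.32). LOXL4, a further lysyl oxidase, had 10.99 and 17.8 CPM against 2.37 and 8.02 CPM. In each of these genes both month 3 libraries were above both month 12 libraries. SERPINH1, the collagen chaperone of the endoplasmic reticulum, had 243 and 308 CPM at month 3 and 97.4 and 156 CPM at month 12 (1.14 ± 0.26). PCOLCE and PCOLCE2, enhancers of the carboxy-terminal protease, had log2 differences of 0.87 ± 0.26 and 1.22 ± 0.32. P4HB and PPIB, general folding enzymes of the same compartment, had -0.10 ± 0.22 and -0.11 ± 0.23. Without the milk library of month 3, 6 of the 33 had an unadjusted p under 0.05, and 11 to 15 without any other single library.

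Proteoglycans and elastic fibre genes had 14 of 34 tested members (41.2%) at an unadjusted p under 0.05 with the higher level at month 3 and 0 at month 12. In both breeds 24 were higher at month 3 and 1 at month 12 (median log2 difference 0.56). LUM, the fibril-binding proteoglycan lumican, stood at 347 and 507 CPM at month 3 and 228 and 106 CPM at month 12 (1.48 ± 0.41). ECM2, a matrix protein related to the small leucine-rich proteoglycans, had 279.9 and 601 CPM against 175 and 192 CPM. VCAN, the large proteoglycan versican, had 174 and 207 CPM against 114 and 66.8 CPM, and FBN1, fibrillin of the microfibrils, 105 and 154 CPM against 85.2 and 36.0 CPM. DCN, decorin, was opposite in the breeds, at 1096 and 830 CPM against 466 and 1047 CPM. POSTN, periostin and the most abundant member, gave 2192 and 2504 CPM at month 3 and 1645 and 3001 CPM at month 12, with overlap between the months. This count was lower without the milk library of month 3, and so was the count over all genes.

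Among matrix proteases and inhibitors, 5 of 28 tested members (17.9%) had the higher level at month 3 at an unadjusted p under 0.05 and 1 (3.57%) at month 12. MMP2, the gelatinase of the dermis, stood at 273 and 313 CPM at month 3 and 146 and 138 CPM at month 12 (1.04 ± 0.20). Its membrane-bound activator MMP14 had 129 and 179 CPM against 102 and 101 CPM, and RECK, an inhibitor of both, 18.5 and 27.9 CPM against 8.03 and 8.19 CPM. These counts were 3 and 1 without the milk library of month 3, without that of month 12 they were 8 and 2, and without the cashmere library of month 12 they were 5 and 7. MMP27, a named gene and a stromelysin-like protease, stood at 10.99 and 12.1 CPM at month 3 and 2.37 and 2.64 CPM at month 12, with a log2 difference of 2.12 in each breed (2.19 ± 0.34 in the fit). CPZ, a secreted carboxypeptidase that binds Wnt proteins, gave 24.6 and 42.2 CPM against 6.85 and 11.5 CPM.

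The other named genes higher at month 3 lay below COL1A1, COL1A2 and COL3A1 in level at both months. TWIST1, a transcription factor of dermal mesenchyme, stood at 55.4 and 79.6 CPM at month 3 and 15.1 and 23.2 CPM at month 12. Its log2 difference of 1.82 ± 0.22 had the unadjusted p of 5.4e-05, and the 2 breeds gave nearly equal differences of 1.86 and 1.77. C1QTNF6, a secreted C1q and TNF-related protein, had 9.73 and 21.8 CPM against 0.922 and 1.06 CPM, and CGREF1, a secreted protein with EF-hand domains, 7.56 and 19.95 CPM against 2.11 and 3.00 CPM. SPOCK1, the proteoglycan testican, had 11.7 and 17.1 CPM against 3.69 and 5.81 CPM. SLC35D3, an orphan solute carrier, rested on 2 reads in cashmere goats at month 12, where 55 reads at month 3 give a ratio of 23.9 (exact 95% counting interval 6.31 to 202), and in milk goats 197 against 59 reads give 3.09 (2.297 to 4.20). HSP70.1, an inducible 70-kDa heat shock protein gene, stood at 96.4 and 82.9 CPM at month 3 and 18.8 and 22.7 CPM at month 12 (2.18 ± 0.44). Near-identical copies of HSP70 genes can share reads, so its level is uncertain.

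Dermal fibroblast genes had 8 of 16 tested members (50%) at an unadjusted p under 0.05 with the higher level at month 3 and 0 at month 12, and 13 were higher at month 3 in both breeds (median 0.65). Their summed level was 9907 and 21373 CPM at month 3 and 3387 and 3267 CPM at month 12, and none of the 16 had 0 reads in all 4 libraries. COL1A1, COL1A2 and COL3A1 made up most of this sum at month 3 but not at month 12, so it largely repeats their difference. As 7 of the 16 are also on a matrix list, the 9 that are not were counted: 8 had a positive log2 difference, 7 were higher at month 3 in both breeds and 3 had an unadjusted p under 0.05. These 3 were DPT, the matrix protein dermatopontin (204 and 151 CPM against 58.2 and 76.9 CPM), PDGFRA, the platelet-derived growth factor receptor of fibroblasts (172 and 273 CPM against 108 and 104 CPM), and THY1, a surface marker (133 and 229 CPM against 96.0 and 154 CPM). Whether more fibroblast RNA accounts for the collagen difference was not tested. The count of 8 was 4 without the milk library of month 3.

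Endothelial genes also had the higher level at month 3, with larger values in cashmere goats, a difference between breeds that was not tested for the list. Of 26 tested, 9 (34.6%) reached an unadjusted p under 0.05 with the higher level at month 3 and 0 at month 12, and 22 were higher at month 3 in both breeds. The median log2 difference was 1.12 in cashmere goats and 0.36 in milk goats, and the summed level 1183 and 1441 CPM at month 3 against 575 and 1074 CPM at month 12. CDH5, the cadherin of vessel walls, had 36.6 and 41.9 CPM at month 3 and 13.8 and 21.7 CPM at month 12. PECAM1, a junction protein, had 221 and 231 CPM against 67.3 and 157 CPM, and LYVE1 and PROX1, of lymphatic vessels, had log2 differences of 1.38 ± 0.34 and 1.15 ± 0.34. Of the 26 markers none had 0 reads in all 4 libraries. The count of 9 was 23 without the milk library of month 12, and 3, 4 and 3 without the cashmere library of month 12, the cashmere library of month 3 and the milk library of month 3. Smooth muscle and pericyte genes had 4 of 20 (20%) with the higher level at month 3 and 0 at month 12, but a summed level of 6066 and 9698 CPM against 5207 and 12636 CPM; the count was 0 without the milk library of month 3 and 2 without any 1 of the other 3 libraries.

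In the FGF and IGF pathways 7 of 26 tested members (26.9%) had an unadjusted p under 0.05 with the higher level at month 3 and 1 (3.85%) at month 12. FGF7, a ligand that fibroblasts send to keratinocytes, stood at 34.8 and 56.4 CPM at month 3 and 22.4 and 32.2 CPM at month 12, so the lower month 3 library lay only just above the higher month 12 library. IGFBP6, a binding protein of insulin-like growth factors, gave 32.5 and 54.3 CPM against 16.1 and 26.4 CPM (1.03 ± 0.17), and IGFBP3 55.6 and 54.7 CPM against 29.9 and 34.5 CPM. FGF18, a ligand of the resting follicle in mouse skin, was the member with the higher level at month 12, at 7.79 and 6.35 CPM against 10.8 and 33.1 CPM. IGF1 went opposite ways in the breeds (148 and 89.1 CPM against 52.0 and 124 CPM). The counts were 3 and 0 without the milk library of month 3, and without that of month 12 they were 9 and 2.

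In the BMP and TGF-beta pathway 7 of 38 tested members (18.4%) had an unadjusted p under 0.05 with the higher level at month 3 and 0 at month 12. The receptors TGFBR2 and TGFBR3 had log2 differences of 0.79 ± 0.22 and 0.998 ± 0.32, and the ligand TGFB1 stood at 33.5 and 43.7 CPM against 26.5 and 23.3 CPM. GREM1, an antagonist of BMP ligands, had 103 and 202 CPM against 74.0 and 91.0 CPM. The ligand BMP4 was level at 45.7 and 26.8 CPM against 43.1 and 26.9 CPM, with the breeds apart in each month. The count was 0 without the milk library of month 3, without the cashmere library of month 3 it was 4, and without the cashmere library of month 12 it was 11, with 3 in the other direction.

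Dermal papilla genes had 7 of 27 tested members (25.9%) at an unadjusted p under 0.05 with the higher level at month 3 and 0 at month 12. Of these 7, VCAN, FGF7 and FGF10 are also on lists given above. Elsewhere in the list SOSTDC1, APCDD1 and NRG2 were higher at month 12 in both breeds. Others, such as IGF1, NOG, INHBA and LEF1, were opposite in the breeds. SPON1, the matrix protein F-spondin, stood at 30.3 and 37.95 CPM at month 3 and 13.04 and 7.84 CPM at month 12 (1.73 ± 0.32). CORIN, a protease that marks the papilla, had 3.78 and 8.79 CPM against 3.16 and 1.67 CPM, and RSPO1, a Wnt agonist, 22.1 and 23.9 CPM against 11.6 and 20.0 CPM. This count was 3 without the milk library of month 3, 3 without either library of month 6 and 4 without the cashmere library of month 3 or either library of month 9.

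Wnt inhibitors included 2 genes with the higher level at month 3, chiefly in milk goats. SERPINF1, a secreted serpin that binds a Wnt co-receptor, stood at 87.2 and 322 CPM at month 3 and 47.7 and 30.5 CPM at month 12 (2.14 ± 0.57). SFRP4, a decoy for Wnt ligands, had 0.916 and 18.5 CPM against 0.527 and 0.881 CPM, so only the milk library of month 3 was high. The other 16 tested Wnt inhibitors had unadjusted p-values above 0.05. Without the milk library of month 3 or of month 6, 1 of the 2 had an unadjusted p under 0.05. Wnt ligands and receptors gave 1 of 29 in each direction, the receptor FZD4 (83.2 and 95.6 CPM against 47.3 and 55.9 CPM) and the ligand WNT2 (9.04 and 17.0 CPM against 12.1 and 41.6 CPM). Among the hormone receptors ESR1, the oestrogen receptor, had 17.9 and 42.3 CPM at month 3 and 11.1 and 10.3 CPM at month 12, and NR3C1, the glucocorticoid receptor, 170 and 218 CPM against 123 and 145 CPM.

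**Figure D3:**
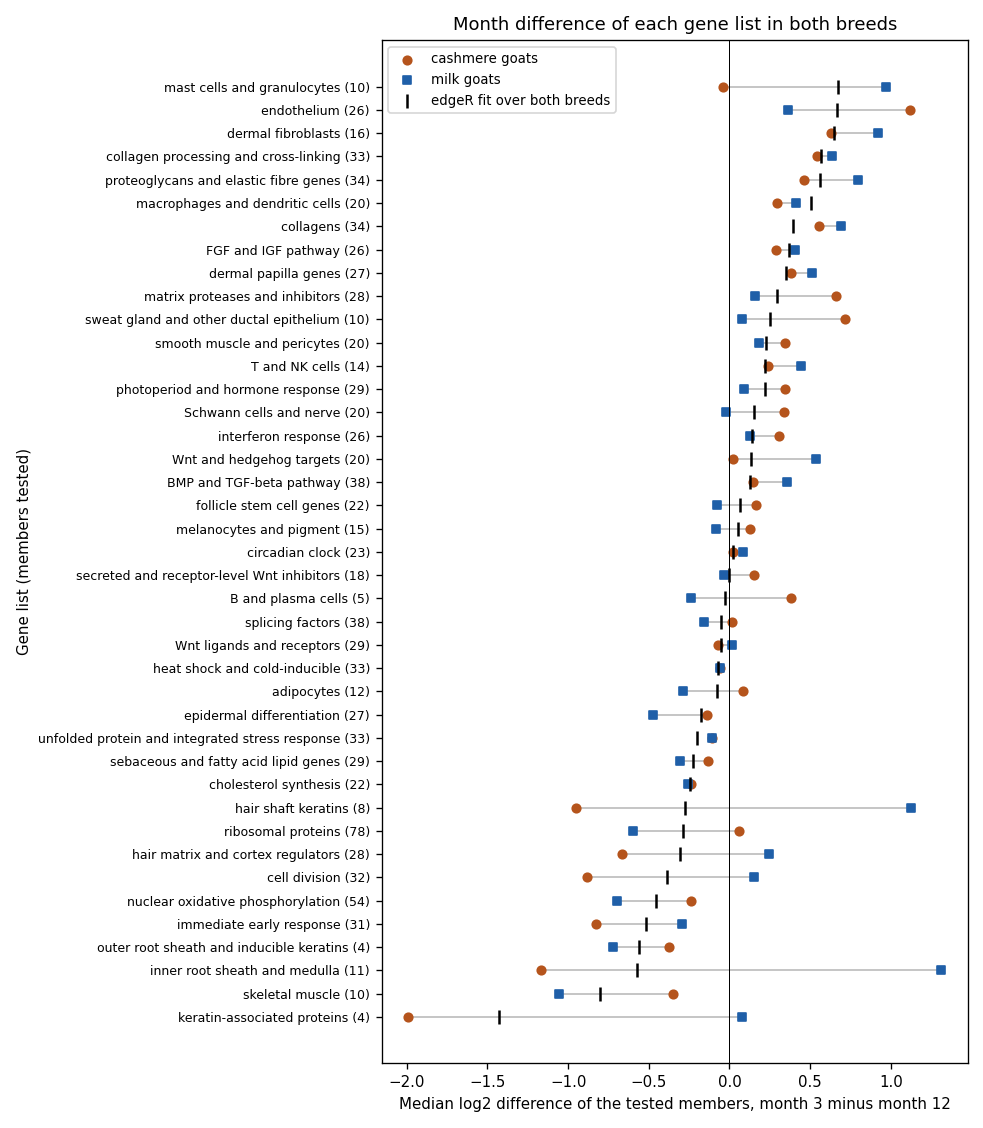
Median log2 difference (month 3 minus month 12, x axis) of the tested members of each gene list (y axis, number tested in brackets) in cashmere goats (circles), in milk goats (squares) and in the edgeR fit (bars). Dermal lists lie above 0 in both breeds (fibroblasts at 0.63 and 0.92), oxidative phosphorylation and immediate early genes below 0 in both, and hair shaft and inner root sheath lists on opposite sides of 0.

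Genes with the higher level at month 12 in both breeds belonged to several groups. RBM3, an RNA-binding protein known to be induced by mild cold, stood at 98.8 and 97.7 CPM at month 3 and 305 and 228 CPM at month 12. Both month 12 libraries were above both month 3 libraries, with a log2 difference of -1.42 ± 0.26 (unadjusted p = 0.000716). CIRBP, the related cold-inducible RNA-binding protein, had 158 and 132 CPM at month 3 and 309.8 and 226 CPM at month 12 (-0.87 ± 0.22). In the same list of heat shock and cold-inducible genes, 4 of 33 tested members had the higher level at month 12 at an unadjusted p under 0.05 and 4 at month 3 (12.1% each). The other 2 higher at month 12 were the small heat shock proteins HSPB7 and HSPB8. The 4 higher at month 3 were SERPINH1, the 70-kDa protein HSPA6 (5.72 and 10.2 CPM against 1.58 and 4.67 CPM), the 105-kDa chaperone HSPH1 (147 and 179.6 CPM against 82.0 and 80.6 CPM) and the co-chaperone CHORDC1 (123 and 129.96 CPM against 85.9 and 61.3 CPM). None of the 3 overlapped between the months. Without the cashmere library of month 3, the milk library of month 3 or either library of month 6, 2 members were higher at month 12. The abundant chaperone HSP90AA1 overlapped between the months (2835 and 3853 CPM against 2458 and 5030 CPM).

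Immediate early genes, which cells transcribe within minutes of a stimulus, had 11 of 31 tested members (35.5%) at an unadjusted p under 0.05 with the higher level at month 12 and 0 at month 3, and 22 higher at month 12 in both breeds (median -0.52). FOS, a named gene, stood at 12.5 and 16.6 CPM at month 3 and 150 and 38.8 CPM at month 12 (-2.47 ± 0.54). EGR1 had 101 and 104 CPM against 363 and 130 CPM, and ATF3 15.6 and 12.9 CPM against 46.7 and 18.1 CPM. In all 3 the cashmere library of month 12 was far above the rest, and the median difference of the list was -0.83 in cashmere goats and -0.29 in milk goats. JUN, a partner of FOS, had 326 and 455 CPM against 473 and 525 CPM. The count of 11 was 4 without the cashmere library of month 12, 3 without that of month 3, 6 without the milk library of month 3, 7 without either library of month 6 and 17 without the milk library of month 12.

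Nuclear genes of oxidative phosphorylation had 15 of 54 tested members (27.8%) at an unadjusted p under 0.05 with the higher level at month 12 and 0 at month 3. In both breeds 43 were higher at month 12 and 0 at month 3, against 27.4% and 26.3% of all genes, with small steps (median -0.45, cashmere -0.24, milk -0.70). NDUFA9, a subunit of complex I, stood at 37.4 and 49.3 CPM at month 3 and 63.5 and 101 CPM at month 12 (-0.90 ± 0.17). NDUFB6 of the same complex had 23.1 and 19.3 CPM against 33.2 and 37.6 CPM, and ATP5J, of the ATP synthase, 21.6 and 19.2 CPM against 37.3 and 28.9 CPM. In these 3 genes the months did not overlap. ATP5F1, the most abundant member, gave 276 and 373 CPM against 325 and 354 CPM. With library totals the median was -0.32 and the count 7. The count was 29 without the cashmere library of month 12, 5 without the milk library of month 12 and 3 without that of month 3. Ribosomal protein genes had 6 of 78 (7.69%) with the higher level at month 12, near the 5.04% of all genes, and 0 at month 3. Their median was 0.06 in cashmere goats and -0.60 in milk goats. The count was 35 without the cashmere library of month 12, 0 without the milk library of month 3 and 1 without that of month 12, where the median turned from -0.29 to 0.02.

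Lipid genes of the sebaceous gland had 5 of 29 tested members (17.2%) at an unadjusted p under 0.05 with the higher level at month 12 and 0 at month 3. ELOVL3, a fatty acid elongase of the gland, stood at 411 and 621 CPM at month 3 and 772 and 1534 CPM at month 12 (-1.12 ± 0.26). THRSP, a regulator of fatty acid synthesis, had 8.36 and 12.3 CPM against 22.6 and 32.9 CPM, with nearly equal log2 differences of -1.42 and -1.41 in the breeds. ACSL5, an acyl-CoA synthetase, had 70.5 and 61.4 CPM against 110 and 129 CPM. FA2H, a named gene outside the list that hydroxylates fatty acids of sphingolipids, gave 204 and 227 CPM against 463 and 631 CPM (-1.33 ± 0.21, unadjusted p = 0.000297). FASN, the fatty acid synthase itself, was closer, at 434 and 392 CPM against 476 and 485 CPM. The list had no common direction: MC5R, ELOVL6 and SCD were among the members higher at month 3 in both breeds. ELOVL1, SOAT1, DGAT2 and FADS1 were among those opposite in the breeds. The count of 5 was 9 without the cashmere library of month 12 and 3 without the cashmere library of month 3, the milk library of month 3 or either library of month 6. It was 5 in each direction without the milk library of month 12, and the median turned from -0.23 to 0.09. In cholesterol synthesis 3 of 22 members (13.6%) had the higher level at month 12 and 0 at month 3. ACAT2, a thiolase of the pathway's first step, had 45.1 and 39.3 CPM against 75.7 and 67.04 CPM, and SQLE, squalene epoxidase, 158 and 157 CPM against 222 and 287 CPM. This count was 1 without the milk library of month 3 and 5 without the cashmere library of month 12 or either library of month 9.

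Epidermal genes had 3 of 27 tested members (11.1%) with the higher level at month 12 at an unadjusted p under 0.05 and 0 at month 3. KRT2, the keratin of the upper epidermis, stood at 36.2 and 18.0 CPM at month 3 and 108 and 43.9 CPM at month 12 (-1.45 ± 0.32). TGM5, a cross-linking enzyme of the cornified envelope, had 130 and 142 CPM against 186 and 233 CPM, and ASPRV1, a protease that processes filaggrin, 270 and 195 CPM against 447 and 283 CPM. The count was 1 without either library of month 3 and 6 without either library of month 12, with 3 and 2 in the other direction. KRT1 and KRT10, the abundant pair of the suprabasal layers, were higher at month 12 only in milk goats by value: KRT1 gave 8146 and 9017 CPM against 6031 and 21113 CPM. Of the outer root sheath and inducible keratins, KRT6A had 415 and 152 CPM against 1126 and 239 CPM, 1 of 4 at an unadjusted p under 0.05.

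**Figure D4:**
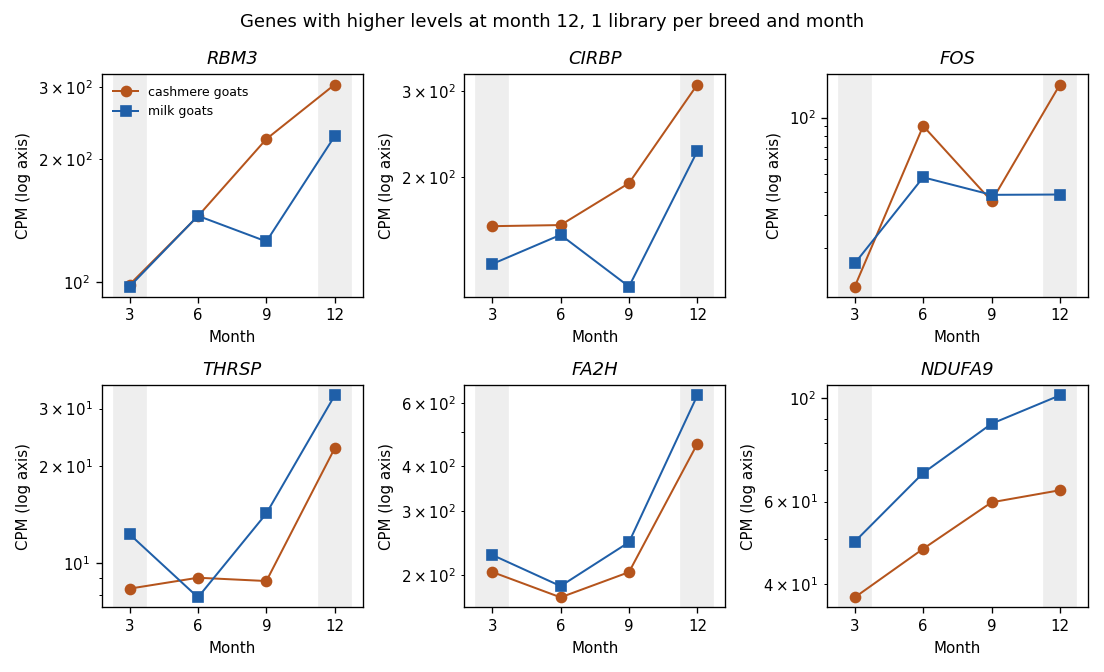
CPM (log axis) of 6 genes with higher levels at month 12 against month in cashmere goats (circles) and milk goats (squares), 1 library per point, with months 3 and 12 shaded. RBM3 stands at 98.8 and 97.7 CPM at month 3 and 305 and 228 CPM at month 12, and FA2H is highest at month 12 in both breeds (463 and 631 CPM).

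The remaining named genes higher at month 12 were of low level. NEFH, the heavy neurofilament chain, stood at 0.687 and 1.22 CPM at month 3 and 5.14 and 79.0 CPM at month 12, with 0 reads in the cashmere libraries of months 6 and 9. TTN, the giant sarcomere protein titin, had 2.52 and 1.63 CPM against 6.58 and 22.4 CPM. Both were highest in the milk library of month 12. ENPP3, an ectonucleotidase, had 2.18 and 1.87 CPM against 11.9 and 7.66 CPM, and AKR1D1, a steroid reductase, 2.52 and 10.99 CPM against 20.9 and 29.8 CPM. NKPD1 had 9.50 and 3.50 CPM against 25.5 and 14.5 CPM, BEX4 3.09 and 3.91 CPM against 7.37 and 15.2 CPM, and the alpha-tubulin gene TUBA1C 3.43 and 1.79 CPM against 9.35 and 5.46 CPM, although near-identical tubulins can share reads. Month 12 was the highest month in both breeds for 9 of the 12 named genes.

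TTN is itself on the list of skeletal muscle markers. Of the 26 listed, 21 were in the table and 10 were tested, of which 4 (40%), TTN, TNNT3, TNNI2 and ACTN3, had the higher level at month 12 at an unadjusted p under 0.05 and 0 at month 3. The summed level was 272 and 528 CPM at month 3 and 293 and 1076 CPM at month 12, so the milk library of month 12 held the most and the cashmere libraries were close to each other. Most of this sum was the single gene DES, at 211 and 442 CPM against 186 and 944 CPM. The summed level of smooth muscle and pericyte genes given above was also highest in the milk library of month 12. TNNT3, a troponin of fast muscle, had 1.14 and 1.06 CPM against 1.19 and 10.7 CPM. No listed marker in the table had 0 reads in all 4 libraries, and the part of muscle RNA in the level of TTN was not tested. The count of 4 was 1 without the milk library of month 3, 2 without either library of month 6 and 6 without the cashmere library of month 12. Nerve and Schwann cell genes had 1 of 20 with the higher level at month 12, NEFH itself, and a summed level of 609.5 and 707 CPM against 512 and 770 CPM.

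Genes of the circadian clock showed no common direction. Of 23 tested, 1 (4.35%) had an unadjusted p under 0.05 with the higher level in each month, 5 were higher at month 3 in both breeds and 3 at month 12, and the median was 0.02. CLOCK, the positive regulator, stood at 59.3 and 91.0 CPM at month 3 and 36.6 and 68.1 CPM at month 12, and CIART, a repressor, at 16.8 and 15.6 CPM against 21.7 and 27.4 CPM. ARNTL, the partner of CLOCK, was level at 11.2 and 10.1 CPM against 11.9 and 9.51 CPM. The repressor PER1 had 43.2 and 32.5 CPM against 39.6 and 41.4 CPM, PER2 58.2 and 90.96 CPM against 62.02 and 63.2 CPM and PER3 8.01 and 13.9 CPM against 9.22 and 8.46 CPM. The repressors CRY1 and CRY2 had log2 differences of 0.34 ± 0.23 and -0.11 ± 0.23. Output genes overlapped between the months: DBP had 39.8 and 51.0 CPM against 32.8 and 66.3 CPM, NR1D1 32.6 and 47.8 CPM against 23.6 and 58.8 CPM, and TEF 123 and 113 CPM against 101 and 181 CPM. HLF, another output gene, was high in milk goats at month 3, at 10.1 and 17.9 CPM against 9.61 and 5.73 CPM. BHLHE40, BHLHE41, CSNK1D, NFIL3, NPAS2, NR1D2, RORA, RORB and TIMELESS had log2 differences between -0.50 and 0.49.

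Hair genes went opposite ways in the 2 breeds. In cashmere goats hair shaft keratins were lower at month 3 than at month 12 (median log2 difference -0.95), and in milk goats they were higher at month 3 (1.13). Of the 8 tested members, 7 had opposite signs in the breeds, and 0 reached an unadjusted p under 0.05 between the months. For these 8, edgeR's test of the difference between the breeds, described below, gave unadjusted p-values from 0.132 (KRT32) to 0.781 (KRT38). KRT35, a keratin of the early cortex, stood at 352 and 75.8 CPM at month 3 and 694 and 28.8 CPM at month 12. KRT32, of the cuticle, had 87.7 and 56.7 CPM against 149 and 8.10 CPM, and KRT82, also of the cuticle, 146 and 65.8 CPM against 308 and 12.0 CPM. In each the cashmere library of month 12 was the highest of the 4 and the milk library of month 12 the lowest. KRT36 gave 34.8 and 4.80 CPM against 39.5 and 2.55 CPM, KRT39 83.1 and 8.88 CPM against 157 and 5.02 CPM, KRT40 25.4 and 9.28 CPM against 43.98 and 1.59 CPM and KRT84 53.0 and 18.1 CPM against 147 and 9.95 CPM. KRT38, at 1.60 and 0.163 CPM against 4.35 and 0.264 CPM, was the member lower at month 3 in both breeds, and both its milk values lie at or under the level of 3 reads. Reads of near-identical keratin copies may be split between genes. Without the cashmere library of month 12, 5 of the 8 had an unadjusted p under 0.05 with the higher level at month 3, and without the milk library of month 12, 5 with the higher level at month 12.

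The inner root sheath list behaved alike, with a median of -1.17 in cashmere goats and 1.31 in milk goats. TCHH, trichohyalin, which hardens the sheath, stood at 18555 and 8733 CPM at month 3 and 65417 and 2463 CPM at month 12. The sheath keratins KRT25 (1866 and 691 CPM against 4327 and 278 CPM) and KRT27 (1318 and 403 CPM against 2962 and 145 CPM) followed the same order. TCHHL1, a relative of trichohyalin, had 79.2 and 175 CPM against 850 and 13.9 CPM. GATA3, a regulator of sheath differentiation that the epidermis also expresses, CDSN, CTSV and TGM3 were lower at month 3 in both breeds. Of the 11 tested members 0 had an unadjusted p under 0.05, against 6 higher at month 3 and 1 at month 12 without the cashmere library of month 12, and 9 higher at month 12 without the milk library of month 12.

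Keratin-associated proteins, which cross-link shaft keratins, did not all follow the keratins. KAP8, a glycine and tyrosine-rich member, stood at 33.4 and 7.49 CPM at month 3 and 406 and 13.5 CPM at month 12, higher at month 12 in both breeds (-2.58 ± 0.71, unadjusted p = 0.00742). KRTAP3-1 was also lower at month 3 in both, at 286 and 20.9 CPM against 619 and 25.7 CPM, whereas KRTAP11-1 (444 and 39.6 CPM against 929 and 28.8 CPM) and KRTAP15-1 (8.47 and 2.20 CPM against 63.1 and 1.15 CPM) were opposite in the breeds. The table also holds unnamed genes beside these. Within 10 genes of a keratin-associated protein gene in the gene order of RefSeq assembly ARS1.2, 20 unnamed genes were tested, a set chosen after values were seen. In cashmere goats all 20 were lower at month 3 (median log2 difference -1.12), and in milk goats 14 were (-0.35). Over all genes the medians were 0.001 and -0.015. The 14 were lower at month 3 in both breeds, as were 27.4% of all genes. Of the 20, 5 had an unadjusted p under 0.05, all higher at month 12, against 5.04% of all genes. They were LOC100861181, LOC100861168, LOC100860930 and LOC108636735 within 3 genes of KAP8, and LOC100861311 within 2 genes of KRTAP15-1. LOC100861181, next to KAP8, stood at 122 and 33.5 CPM at month 3 and 1332 and 97.1 CPM at month 12, and at 2351 and 819 CPM at month 9.

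**Figure D5:**
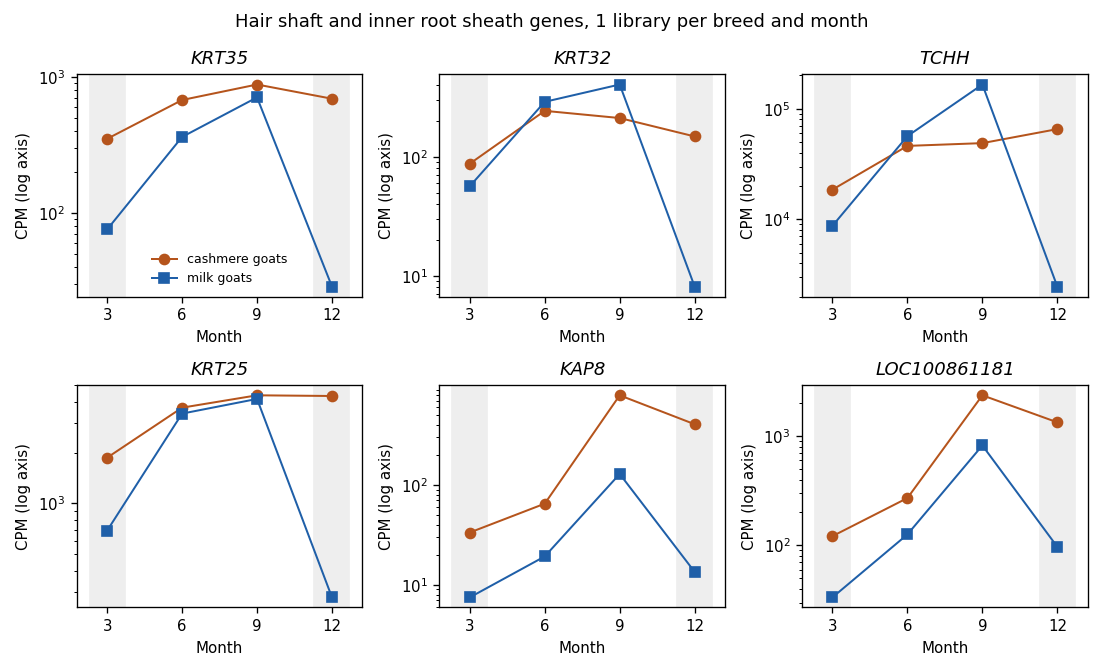
CPM (log axis) of 6 hair genes against month in cashmere goats (circles) and milk goats (squares), 1 library per point, with months 3 and 12 shaded. KRT35, KRT32, TCHH and KRT25 are lower at month 12 than at month 3 in milk goats and higher in cashmere goats, while KAP8 and its neighbour LOC100861181 are higher at month 12 in both breeds.

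The other count table of the series, built on another gene set, names more hair genes by product (a selection of products made after the data were seen). Of 17 hair keratins there, 17 were lower at month 3 in cashmere goats (median -0.77) and 16 were higher at month 3 in milk goats (1.07). Of 27 keratin-associated proteins, 27 were lower at month 3 in cashmere goats (-0.80), and in milk goats 15 were higher and 12 lower (0.28). Of all 14994 genes tested there, 7621 were lower at month 3 in cashmere goats (median -0.009). In milk goats 7072 of them were higher and 7917 lower (-0.044). The split of the keratin-associated proteins in milk goats was not far from this. Of the 24 named genes, 20 were found in that table, 18 with the same direction in both breeds and 14 at least 2-fold apart in both. That table counts reads of the same 8 libraries, in which the 24 genes were chosen by size and sign of difference. A kept direction there was thus largely fixed by the choice and is no test of it. SPOCK1 and TUBA1C were opposite in the breeds there, and the fitted difference of TUBA1C turned to 0.29, higher at month 3. COL1A1 had a log2 difference of 3.40 ± 0.77 and TWIST1 of 2.02 ± 0.31 in that table.

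The difference between the breeds was tested with an interaction term, which no gene passed (0% at an adjusted p under 0.05, smallest adjusted p 0.646), with 1020 genes (7.24%) at an unadjusted p under 0.05. limma on log2 FPKM also called 0 with either pseudocount, and DESeq2 called 17. At least 2-fold higher at month 3 in cashmere goats and at month 12 in milk goats were 57 genes (0.405%), and the reverse held for 82 (0.582%). SHH, the hedgehog ligand of the growing follicle, stood at 3.43 and 6.76 CPM at month 3 and 10.7 and 0.617 CPM at month 12, and DESeq2 gave its interaction of -4.88 an adjusted p of 0.0498. COL6A5, a type VI collagen chain, had 16.6 and 36.5 CPM against 99.9 and 9.34 CPM, with an interaction of -4.57 in DESeq2 (adjusted p 0.00181). KRT26, a sheath keratin, and CRNN, an epidermal protein also found in the sheath, were also highest in the cashmere library and lowest in the milk library of month 12. DESeq2 gave their interactions of -4.20 and -3.62 unadjusted p-values of 0.138 and 0.0989, with an adjusted p of 0.9998 each. For TCHH its interaction of -3.66 had an unadjusted p of 0.212. In the other direction PPP1R9A, an actin-binding protein of neurons, had 34.6 and 35.9 CPM at month 3 and 12.5 and 117 CPM at month 12, and GPR3, an orphan receptor, 10.5 and 7.65 CPM against 3.03 and 38.3 CPM. GREB1, an oestrogen-responsive gene, had 16.03 and 0.814 CPM against 2.11 and 2.55 CPM, so cashmere goats at month 3 stood apart.

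Genes of cell division had 20 of 32 tested members with opposite signs in the breeds, and the other 12 were higher at month 12 in both. Their median was -0.89 in cashmere goats and 0.15 in milk goats, and 2 (6.25%, against 5.04% of all genes) had an unadjusted p under 0.05, NUSAP1 and BIRC5, both with the higher level at month 12. This count was 20 without the milk library of month 12, and without the cashmere library of month 12 it was 1, with 3 in the other direction. MKI67, a proliferation marker, stood at 127 and 119 CPM at month 3 and 306 and 55.5 CPM at month 12, so the month 12 libraries held both extremes. In the list of hair matrix and cortex genes 1 of 28 (3.57%) had the higher level at month 3, FOXI3, an ectodysplasin target, at 36.1 and 27.1 CPM at month 3 and 4.08 and 23.7 CPM at month 12, low only in cashmere goats at month 12 among these 4 libraries. At month 9 it stood at 3.32 and 4.87 CPM, the lowest month in both breeds. Without the milk library of month 12, 14 of the 28 were higher at month 12, and without the cashmere library of month 12, 10 were higher at month 3, each at an unadjusted p under 0.05.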

How the data were processed

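Polyadenylated RNA from skin was sequenced as directional read pairs, per the labels' protocols. The authors deposited 2 tables of raw read counts per gene and 1 of FPKM. Bowtie2 is named in the submitters' processing notes, while the sources used here give no version, counter, strand setting or genome build. Antisense and overlapping genes are therefore uncertain. The columns of both count tables were matched by gene profile (8 of 8, over 12931 symbols), which assigned a transliterated word to the cashmere goats.

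The first table (18815 genes) was filtered with filterByExpr on breed, leaving 14085, scaled by TMM and tested with edgeR 4.0.16 in R 4.3.3 (quasi-likelihood test, month and breed as terms over all 8 libraries, 3 residual degrees of freedom, Benjamini-Hochberg, threshold 0.05). A breed by month term left 2. Log2 CPM used a prior count of 2. Alternatives were DESeq2 1.42.0, limma 3.58.1 on log2 FPKM, other scalings, filters and left-out libraries.

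Named genes had a symbol not starting with LOC and at least 5 CPM on average, were past the threshold or otherwise at least 2-fold apart in both breeds, and were ordered by the smaller of both breeds' differences (12 in each direction, and 6 in each direction for opposite signs). For lists, members past the threshold or else those with the largest mean CPM and log2 difference were taken, others being named after their values were seen. The libraries, members and lists were chosen with earlier results of these data known. A few list members that enter the counts are not reported here by name.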

Additional observations from a re-analysis of the deposited data

Results flagged for a closer look

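The month difference had opposite signs in the breeds for 12 named genes and for the medians of 2 gene lists, each breed having 1 library per month. The interaction test gave no adjusted p under 0.646 for any gene, and the lists' difference was not tested. The fitted difference of cashmere goats minus milk goats on the log2 scale was 4.18 for DNAH17, 4.68 for UNC79, 4.01 for GPR3, 3.12 for PPP1R9A, 4.55 for GREB1 and 3.47 for CACNA1I. It was -7.03 for TCHHL1, -4.09 for KRT26, -4.56 for COL6A5, -3.64 for TCHH, -3.57 for CRNN and -4.64 for SHH. Between the medians of the 2 breeds it was -2.07 for the hair shaft keratins and -2.48 for the inner root sheath and medulla list.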

How the results depend on the processing

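The 0 calls between month 3 and month 12 became 93 with DESeq2, and 0 to 45 when single libraries were left out. DESeq2 called 15 of the 24 named genes, while 5 of the 24 had no adjusted p there. The interaction gave 17 calls with DESeq2, and 0 to 0 without single libraries of months 6 or 9. The 1488 genes at an unadjusted p under 0.05 (a count whose alternatives were chosen after seeing the data) were 752 without the breed term, 962 with only the 4 libraries of months 3 and 12, and 412 to 2998 without single libraries, lowest without the milk library of month 3 and highest without the cashmere library of month 12. The 166 genes at least 2-fold apart in both breeds were 268 without a filter, 91 with a mean of at least 50 reads and 52 with log2(FPKM + 1). The number of the 41 lists with a median above 0 was 21, and 20 to 30 under its alternatives, including each breed alone. None of the 24 named genes changed direction in the 431 alternative values from the first table and its FPKM, of which 18 passed an adjusted p of 0.05, whereas in the other count table TUBA1C turned from -1.51 to 0.29. No interaction of the 12 opposite genes changed direction in 142. Both sets of genes were chosen by the size and sign of their differences in these same libraries. A kept direction was thus largely fixed by the choice and is no test of it. Depth limits genes near 3 reads, and 1 library per breed and month limits the rest.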

Other observations

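Among unnamed genes picked out after values were seen, 4 had their lowest level in the cashmere library of month 12. LOC102188300 stood at 830 and 807 CPM at month 3 and 13.2 and 162 CPM at month 12. LOC108634312 had 333 and 207 CPM against 4.87 and 42.3 CPM, LOC102188576 171 and 119 CPM against 1.71 and 25.99 CPM, and LOC102189749 122 and 115 CPM against 1.32 and 25.8 CPM. In the cashmere libraries of months 6 and 9 LOC102188300 gave 481 and 598 CPM, and in the milk libraries of those months 163 and 165 CPM. Its level thus had a step between month 3 and the other months in milk goats and a step at month 12 in cashmere goats. What these genes encode is not given by the tables used here.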
